A study of Mus musculus with 22 samples.

Results

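Royan B20 was compared with Royan B18, a pair of C57BL/6 mouse embryonic stem cell lines, within each of 3 media and as the mean over the media. Every autosomal gene detected on the bead arrays of these lines was taken, which gave 8634 genes of 9162 tested, on 16 of the 22 arrays of the series. The series profiled 4 embryonic stem cell lines in defined media without serum. Each line was read on 8 arrays: R2i and PD had 3 per line, and 2i had 2 per line. Every medium was N2B27 with the cytokine LIF and PD0325901 (PD), an inhibitor of the kinase MEK. R2i added SB431542, which blocks the kinase receptors through which Activin, Nodal and TGF-beta signal, PD medium held no second inhibitor, and 2i added CHIR99021, an inhibitor of the kinase GSK3. Both lines had been derived from blastocysts in the R2i combination, and the cells in PD and 2i had then spent 10 passages in those media, per the labels. Each line stands for 1 derivation, and each line was hybridised on its own chip, so that line and chip cannot be told apart in any value below.

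Mouse embryonic stem cells kept in MEK inhibitor and LIF hold a state close to the preimplantation epiblast. Lines derived from the same strain can still part from one another, since imprinted genes, which are read from only the maternal or only the paternal copy, can lose or gain their methylation marks in culture, and whole chromosomes can be gained or lost. Culture also changes metabolic programmes such as sterol synthesis, which the transcription factor SREBP2 switches on when cellular cholesterol is low.

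Levels are given as normalized log2 intensity, in which 1 unit is a 2-fold difference, and differences are B20 minus B18 with their moderated standard error (SE). A gene passed at a Benjamini-Hochberg adjusted p below 0.05 in limma. On the mean over the media, 2865 of the 8634 genes passed (33.2%). Of these, 1350 were higher (15.6%) and 1515 lower (17.5%) in B20. Most differences were small: 191 genes passed with at least 0.5 log2 units, 81 of them higher and 110 lower. A difference of 1 log2 unit or more was passed by 2 genes (0.0232%), Grb10, which was higher (0.0116% of genes), and Scd2, which was lower (0.0116%). With the arrays scaled to equal medians in place of quantile normalization, the median of all genes moved up by 0.155 log2 units and the calls became 3751 higher and 495 lower, so that directions are to be read relative to that shift. The scaled medians were taken over all 25697 probes, of which 42.1% to 45.4% were detected per array, so they fell among undetected probes.

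All 13 embryonic stem cell markers on the array were detected on all 16 arrays, and Col1a1, Sox1, Pax6, Gata4, Sox17, T, Mixl1, Cdx2 and Elf5, which mark fibroblasts and early lineages, were detected on none. Other defining markers of these cells were detected on some arrays: Thy1 on 8 B20 and 5 B18 arrays, Eomes on 6 B20 and 3 B18 arrays, and Gata6 on 0 B20 and 3 B18 arrays. Of the wider lists, 9 of 27 endoderm, 8 of 22 trophoblast, 4 of 20 fibroblast, 3 of 18 neural and 3 of 18 primitive streak genes were detected on all 16 arrays. Between 10822 and 11670 probes were detected per array, and the small number of arrays limits the precision of every difference. Replicate arrays correlated across genes at 0.990 to 0.996, and the lines in a medium at 0.985 to 0.991, a correlation over genes, which are not independent. The housekeeping controls were brighter in B20 (11.93 to 12.12 raw log2 intensity) than in B18 (11.80 to 11.98), and the part of this difference in the results was not tested. The third B20 PD array stood apart on the fourth principal component (-4.10, against 12.3 and 14.9 for the other B20 PD arrays). The labels do not say whether arrays of a group came from separate cultures, so that p-values measure only how far these arrays spread, which can be technical.

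Grb10, an adaptor protein gene that restrains insulin and growth factor signalling and is imprinted, showed the largest difference between the lines. In R2i it read 10.86, 10.95 and 10.80 in B20 and 9.81, 9.78 and 9.79 in B18. In PD it read 10.98, 10.99 and 11.10 in B20 and 8.13, 7.94 and 7.74 in B18. In 2i it read 10.73 and 10.83 in B20 and 9.73 and 9.43 in B18. The lines did not overlap in any medium, and B20 held nearly the same level throughout while B18 was lowest in PD. Such separation in all 3 media was shown by 324 genes with B20 above (3.75%) and 353 with B20 below (4.09%). The difference was 1.79 on the mean (SE 0.06, limma adjusted p = 2.3e-11). Because whole cultures were measured, fewer cells with the transcript and less transcript per cell cannot be told apart.

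Other imprinted genes differed in both directions. Of 9 tested genes read from the maternal copy, 6 fell, 1 (Grb10) rose and 2 did not pass, with a median of -0.27 log2 units, where the median of all autosomal genes was -0.0031 and 17.5% of them were lower and 15.6% higher. Of 13 tested genes listed as read from the paternal copy, 5 fell, 3 rose and 5 did not pass, with a median of -0.07. That list counts Gnas and Commd1, and which copy was read was not measured for any gene. With median scaling the maternal list gave 4 lower and 1 higher and a median of -0.27 relative to all genes. The paternal list then gave 5 lower and 7 higher and a median that turned to 0.03 relative to all genes. In that setting 495 of all 8634 genes were lower and 3751 higher. The lists were chosen with results of these arrays known.

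The growth factor gene Igf2 and the non-coding RNA gene H19, neighbours on chromosome 7 that are read from opposite parental copies, were both lower in B20. Igf2 read 8.73, 8.66 and 8.74 in B20 and 9.24, 9.24 and 9.09 in B18 in R2i. In PD it read 7.87, 7.98 and 8.01 in B20 and 9.41, 9.0 and 9.10 in B18. All B20 arrays lay below all B18 arrays within each medium, also in 2i (7.90 and 7.90 in B20, 8.66 and 8.57 in B18), and the mean difference was -0.80 (SE 0.06, limma adjusted p = 6.1e-07). H19 read 6.06, 6.03 and 5.94 in B20 and 7.32, 7.45 and 7.27 in B18 in R2i, a difference of -1.34 (SE 0.12, limma adjusted p = 4.5e-06). In PD it was not well above background on any B20 array and was at least 1.55-fold lower than in B18. In 2i it was not well above background in either line.

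Cdkn1c, which encodes the cell cycle inhibitor p57 and is read from the maternal copy, was lower in B20 in every medium. It read 8.07, 7.93 and 8.06 in B20 and 8.74, 8.67 and 8.61 in B18 in R2i, and 6.35 and 6.72 in B20 and 7.46 and 7.31 in B18 in 2i. The arrays of the lines did not overlap, and the mean difference was -0.71 (SE 0.07, limma adjusted p = 9.3e-06). Mest, a paternally read gene, fell by 0.64 on the log2 scale on the mean (SE 0.09) and by 1.02 in PD. Its 3 detected probes all passed in the same direction. The zinc finger gene Peg3, also read from the paternal copy, was detected on 2 of 8 B20 arrays and 7 of 8 B18 arrays, and in PD it was at least 1.31-fold lower in B20. Ndn, of the chromosome 7 cluster near Snurf, fell by 0.37 on the log2 scale while its neighbours Snurf and Mkrn3 rose by 0.22 and 0.21. Igf2r, Ppp1r9a, Peg10, Impact, Gnas, Inpp5f and Commd1 did not pass, and a second Commd1 probe passed in the lower direction.

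**Figure D1:**
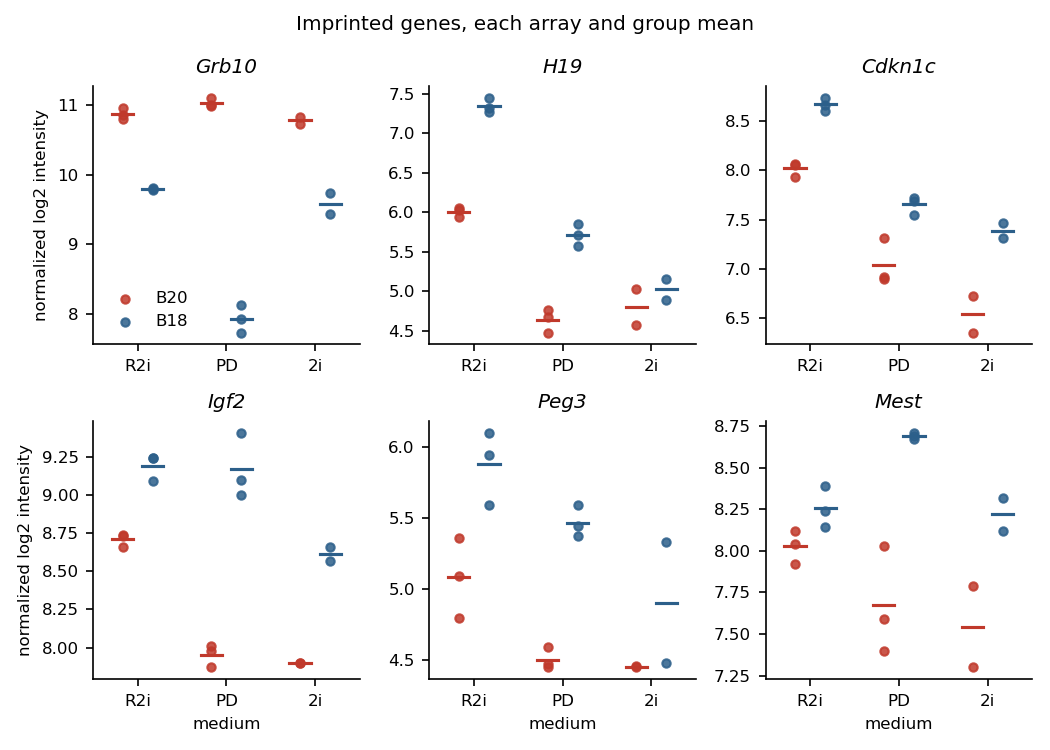
Normalized log2 intensity of 6 imprinted genes in each medium, with 1 point per array and a bar at the group mean, B20 left of B18. Grb10 is higher in B20 in every medium, and Igf2 and Cdkn1c are lower in B20 with no overlap of arrays within a medium; these mean differences keep their sign with median scaling.

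Genes of cholesterol synthesis were lower in B20. Of 18 tested, 17 fell, 0 rose and 1 did not pass on the mean, with a median of -0.46 log2 units. Of all autosomal genes, 17.5% were lower and 15.6% higher. With median scaling 14 fell and 0 rose, with a median of -0.49 relative to all genes. In that setting 495 of all 8634 genes were lower and 3751 higher. Leaving out the 2 members on chromosome 8, 15 of 16 fell. The list was chosen with results of these arrays known. By medium its median was -0.64 in R2i with 12 members lower, -0.56 in PD with 14 lower and -0.30 in 2i with 2 lower, where 10.7%, 8.71% and 2.28% of all autosomal genes were lower and 9.6%, 6.73% and 2.58% higher. Without the third B20 PD array 12 members were lower in PD, without the second B18 2i array 0 were lower in 2i, and with median scaling 9 were lower in PD and 0 in 2i.

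The upstream windows of 4 of these genes are shown because the members moved together. Each gives the 250 bases before the start of transcription, 5′ to 3′ on the strand of the gene, from RefSeq on build GRCm38.p6. Cyp51 lies on the minus strand (chr5:4104698-4104947), Msmo1 on the minus strand (chr8:64733579-64733828), Mvd on the minus strand (chr8:122443423-122443672) and Srebf2 on the plus strand (chr15:82147019-82147268). Capitals mark CCAAT, the box bound by the factor NF-Y, on either strand, where its complement reads ATTGG.
Cyp51: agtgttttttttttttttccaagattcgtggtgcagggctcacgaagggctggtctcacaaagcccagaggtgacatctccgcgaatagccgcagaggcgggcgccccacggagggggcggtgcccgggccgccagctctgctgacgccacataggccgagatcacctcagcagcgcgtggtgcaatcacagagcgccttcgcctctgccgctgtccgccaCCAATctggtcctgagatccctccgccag
Msmo1: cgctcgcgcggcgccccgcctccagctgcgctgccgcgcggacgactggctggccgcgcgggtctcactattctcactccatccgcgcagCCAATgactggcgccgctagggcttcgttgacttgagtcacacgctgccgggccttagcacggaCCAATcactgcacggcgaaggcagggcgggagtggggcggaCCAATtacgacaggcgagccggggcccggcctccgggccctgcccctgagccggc
Mvd: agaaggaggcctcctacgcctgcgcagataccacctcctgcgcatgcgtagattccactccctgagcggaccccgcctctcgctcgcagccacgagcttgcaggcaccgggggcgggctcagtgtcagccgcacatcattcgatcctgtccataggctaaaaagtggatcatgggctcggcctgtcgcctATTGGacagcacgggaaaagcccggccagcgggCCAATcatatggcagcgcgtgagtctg
Srebf2: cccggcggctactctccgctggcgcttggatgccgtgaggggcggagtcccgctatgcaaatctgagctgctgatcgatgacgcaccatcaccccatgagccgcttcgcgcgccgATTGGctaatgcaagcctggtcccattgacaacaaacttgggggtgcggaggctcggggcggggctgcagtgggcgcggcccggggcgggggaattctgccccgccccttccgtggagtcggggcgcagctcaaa
The CCAAT box was found in 12 of the 13 tested cholesterol genes that had a window, counting a gene when any of its windows held it. Among the 6933 autosomal tested genes with a window, 41.6% held it. The exact letters TCACNCCAC, a form of the sterol regulatory element, were searched on both strands. They occurred in 0 of the 13 genes, against 1.2% of the 6933. Sites that differ from these letters were not searched, so the count does not say whether the element is absent. These are matches of letters in a short window.

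Cyp51, which encodes the lanosterol demethylase and whose window holds 1 CCAAT box, read 7.99, 7.73 and 8.0 in B20 and 8.89, 8.93 and 8.91 in B18 in R2i. In PD it read 8.13, 8.08 and 8.01 in B20 and 8.72, 8.89 and 8.88 in B18, and in 2i 9.17 and 8.93 in B20 and 9.51 and 9.45 in B18. B20 lay below B18 in every medium without overlap, and the differences were -1.01, -0.75 and -0.43 in R2i, PD and 2i. Mvd, the mevalonate diphosphate decarboxylase gene, read 6.83, 6.74 and 7.07 in B20 and 7.95, 7.95 and 8.10 in B18 in R2i, a difference of -1.12 (SE 0.10, limma adjusted p = 3.7e-06). Srebf2, which encodes SREBP2 itself, fell by 0.57 on the log2 scale on the mean (SE 0.09). Msmo1, Fdps, Dhcr7, Stard4, Sqle and Lss fell by 0.73, 0.61, 0.60, 0.56, 0.47 and 0.45 on the log2 scale. Idi1, the isopentenyl diphosphate isomerase gene, was the member that did not pass (-0.17, limma adjusted p = 0.11).

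The lipid genes named next were chosen after their values were seen and stand for no list. Scd1, which encodes the stearoyl-CoA desaturase, read 9.56, 9.64 and 9.64 in B20 and 10.77, 10.87 and 10.88 in B18 in R2i, and 9.54, 9.64 and 9.78 in B20 and 10.59, 10.94 and 10.82 in B18 in PD. The lines stood more than 1 log2 unit apart in the means of both media, and in 2i the difference of -0.47 missed the threshold (limma adjusted p = 0.052). Scd2, its paralog, fell by 1.03 on the log2 scale on the mean (SE 0.10, limma adjusted p = 7.5e-06). Fads2, the delta-6 desaturase gene, fell by 0.68 and the lipoprotein lipase gene Lpl by 0.67. Fasn, the fatty acid synthase gene, did not pass (-0.11) and was detected on 4 of 8 arrays of each line.

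**Figure D2:**
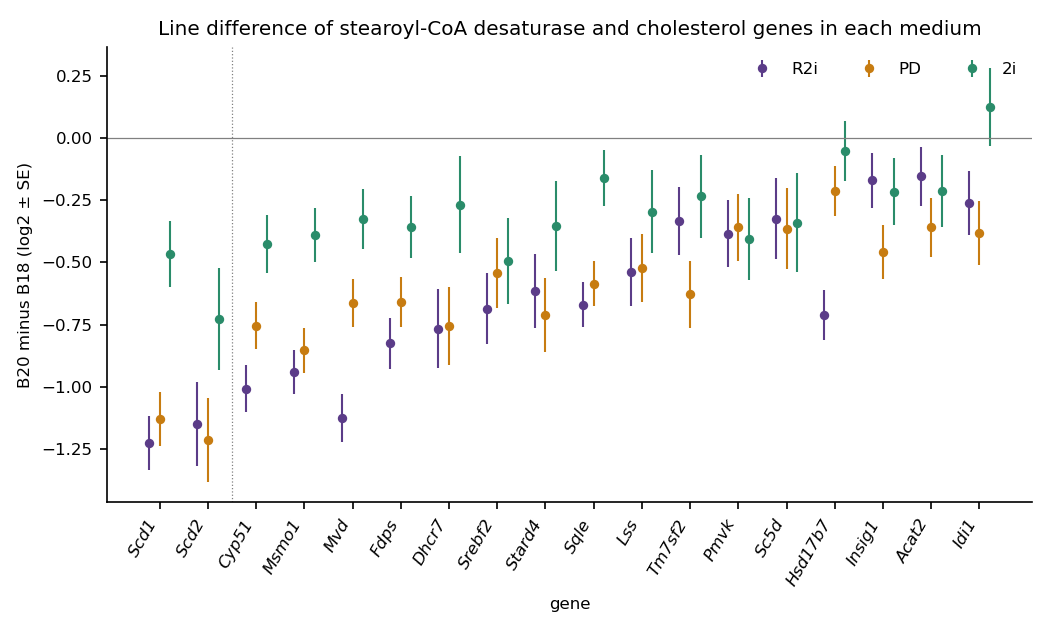
Difference B20 minus B18 in log2 units, with moderated SE, in R2i, PD and 2i for Scd1, Scd2 and 16 of the 18 tested cholesterol genes in order of their mean difference. Means over the media run from -0.73 for Cyp51 to -0.17 for Idi1, and of all 18 tested members 17 are lower in B20, or 14 with median scaling.

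Glycolysis and hypoxia genes were lower in B20 on the mean and in PD. Of 27 tested, 18 fell and 2 rose on the mean, with a median of -0.27, where 17.5% of all genes were lower and 15.6% higher. With median scaling 6 fell and 8 rose, with a median of -0.19 relative to all genes. In that setting 495 of all 8634 genes were lower and 3751 higher. In R2i 9 fell and 0 rose (3 lower and 2 higher with median scaling), where 10.7% of all genes were lower. In PD 15 fell and 0 rose (median -0.48, and 12 lower and 3 higher with median scaling), where 8.71% were lower. In 2i 0 fell and 1 rose (median -0.02, and 0 lower and 7 higher with median scaling), where 2.28% were lower and 2.58% higher. With median scaling 423, 344 and 80 of all 8634 genes were lower in R2i, PD and 2i, and 1573, 1569 and 2091 higher. Ldha, the lactate dehydrogenase gene, read 10.11, 10.62 and 10.43 in B20 and 11.25, 11.53 and 11.52 in B18 in PD, without overlap. In 2i it read 11.71 and 11.34 in B20 and 11.27 and 11.56 in B18, where the lines overlapped. Its difference varied among the media (limma F test, adjusted p = 0.016). Aldoc, Pfkm and Hk1, which encode an aldolase, a phosphofructokinase and a hexokinase, fell by 0.54, 0.47 and 0.47 on the log2 scale on the mean.

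A list of amino acid and ER stress response genes, named for the transcription factor ATF4, had 34 tested members. Of these, 17 rose and 3 fell on the mean, with a median of 0.22, where 15.6% of all genes were higher and 17.5% lower. In R2i 5 rose and 4 fell (median 0.11), where 9.6% of all genes were higher and 10.7% lower. In PD 11 rose and 2 fell, where 6.73% were higher and 8.71% lower. In 2i 5 rose and 0 fell, where 2.58% were higher and 2.28% lower, and without the second B18 2i array 0 rose. On the mean with median scaling 25 rose and 1 fell, where 3751 of all 8634 genes were higher and 495 lower. The median of the list was then 0.27 relative to all genes. Trib3, a pseudokinase gene, read 11.17, 10.82 and 11.15 in B20 and 10.50, 10.26 and 10.22 in B18 in PD, without overlap. Its mean difference was 0.61 (SE 0.08, limma adjusted p = 5.6e-05). The transcription factor gene Cebpb rose by 0.58, the stanniocalcin gene Stc2 by 0.56 and the glycine transporter gene Slc6a9 by 0.55.

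Core pluripotency genes had small differences on the mean, and some passed within a medium. Nanog read 12.10, 11.95 and 12.01 in B20 and 12.30, 12.41 and 12.32 in B18 in R2i, a difference of -0.32 (limma adjusted p = 0.042), and its mean difference of -0.01 did not pass. On the mean, Zfp42 (-0.17), Sox2 (-0.00), Esrrb (0.08) and Klf4 (0.12) did not pass either. Zfp42 passed in R2i (-0.42, limma adjusted p = 0.028), and Sox2 passed in PD (0.33, limma adjusted p = 0.045), with a difference that varied among the media (limma F test, adjusted p = 0.047). Pou5f1 fell by 0.14 on the log2 scale on the mean (limma adjusted p = 0.037), and with median scaling its difference turned to 0.11. A second Pou5f1 probe of similar level read 0.03 and did not pass (limma adjusted p = 0.69), and the call of the first was lost in 11 other settings. Of 26 naive pluripotency genes 4 rose and 3 fell, and of 17 general pluripotency genes 4 rose and 3 fell. Of all genes, 15.6% were higher and 17.5% lower. With median scaling the naive counts were 17 and 0 and the general counts 11 and 1. In that setting 3751 of all 8634 genes were higher and 495 lower. Within media the naive list had 1 higher and 6 lower in R2i, 7 higher and 1 lower in PD, and 1 higher and 1 lower in 2i. Of all genes, 9.6%, 6.73% and 2.58% were higher in R2i, PD and 2i, and 10.7%, 8.71% and 2.28% lower. Lin28a, an RNA-binding regulator of let-7, rose by 0.45 (SE 0.07), while Tdgf1, which encodes a co-receptor of Nodal, was lower at -0.53 (SE 0.10).

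Otx2, a homeobox gene that rises as cells leave the naive state, was higher in B20 in every medium. It read 7.92, 7.84 and 7.89 in B20 and 7.14, 7.07 and 7.11 in B18 in R2i. In PD it read 9.27, 9.17 and 8.88 in B20 and 8.23, 8.39 and 8.26 in B18, and in 2i 8.24 and 8.0 in B20 and 6.73 and 6.84 in B18. The lines did not overlap, and the mean difference was 0.97 (SE 0.06, limma adjusted p = 1.5e-07). Of 11 tested genes of the primed epiblast, Otx2 included, 3 rose, 2 fell and 6 did not pass, where 15.6% of all genes were higher and 17.5% lower. The tight junction gene Cldn6 was among those that rose (0.36, SE 0.06), though not in 2i (-0.02). Those that fell were Zic2 (-0.39, SE 0.07) and the keratin gene Krt18 (-0.37, SE 0.12). Of 17 endoderm genes 6 rose and 4 fell on the mean, where 15.6% of all genes were higher and 17.5% lower. In R2i 3 rose and 6 fell, in PD 3 rose and 3 fell, and in 2i 2 rose and 1 fell. The shares of all genes in R2i, PD and 2i were 9.6%, 6.73% and 2.58% higher and 10.7%, 8.71% and 2.28% lower. Sox7, a SOX-family transcription factor, rose by 0.68 (SE 0.07), and the matrix gene Sparc was lower at -0.38 (SE 0.08). The summed linear level of the 30 endoderm genes on the array ranged from 4185 to 5274 in B20 and from 4057 to 6446 in B18, with Gata4 and Sox17 not detected, and its part in these differences was not tested.

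Among the 12 largest differences in each direction, a choice made after values were seen, were genes of several functions. The signal peptide peptidase gene H13, whose neighbourhood is imprinted in mouse, rose by 0.90 (SE 0.07), with 1.12 in R2i and 1.36 in PD and 0.23 in 2i, where it did not pass. The aspartic protease genes Pga5 and Napsa rose by 0.85 and 0.81. Hrk, a pro-apoptotic BCL2-family gene, rose by 0.75. Tgm2, the tissue transglutaminase gene, fell by 0.86, and the adhesion receptor gene Adgre5 fell by 0.88, with -2.02 in R2i, while it did not pass in PD (-0.33) or 2i (-0.31) and varied among the media (limma F test, adjusted p = 0.006). Across all genes, 40 passed as higher in each of the 3 media (0.463%) and 51 as lower (0.591%).

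Smcr8, Zfp110 and Rbpj were detected on all 8 B20 arrays and on none of the 8 B18 arrays. They were named for this contrast and entered the test only through the B20 arrays. Their levels lay near background, and the group means differed by at least 1.1-fold, at least 1.14-fold and at least 1.09-fold, higher in B20. These bounds do not take in the spread of the arrays. Rbpj did not pass in PD (limma adjusted p = 0.32), where the lines overlapped, or in 2i (limma adjusted p = 0.58). Smcr8 did not pass in 2i (limma adjusted p = 0.20). Zfp110 is a zinc finger gene of chromosome 7. Of the 186 tested genes whose symbol begins with Zfp, a set chosen after values were seen, 58 rose and 11 fell, with a median of 0.10, where 15.6% of all genes were higher and 17.5% lower. With median scaling 106 of them rose and 3 fell, with a median of 0.08 relative to all genes, where 3751 of all 8634 genes were higher. On chromosome 7, 21 of 54 rose and 4 fell, where 17.2% of all its tested genes were higher and 17.1% lower. Zfp780b rose by 0.75 (SE 0.09) and read 6.36, 6.18 and 6.39 in B20 and 5.71, 5.58 and 5.10 in B18 in R2i. Zfp345 rose by 0.63 (SE 0.07), with nearly the same value in each medium. Of 18 germline genes 7 rose and 0 fell on the mean, where 15.6% of all genes were higher, among them the meiotic gene Hormad2 (0.48) and the chaperone gene Fkbp6 (0.42). On the mean with median scaling 8 rose and 0 fell, with a median of 0.01 relative to all genes. In that setting 3751 of all 8634 genes were higher and 495 lower. Without that scaling, by medium 4 rose and 1 fell in R2i, 6 rose and 0 fell in PD, and 0 rose and 1 fell in 2i. The shares of all genes in R2i, PD and 2i were 9.6%, 6.73% and 2.58% higher and 10.7%, 8.71% and 2.28% lower.

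Genes of chromosome 8 were lower in B20 as a set. Of 489 tested, 182 passed as lower (37.2%) and 28 as higher (5.73%), and 74.6% had a difference below 0. On the other 18 autosomes 13.3% to 21.2% passed as lower, 11.2% to 21.2% as higher, and 43.9% to 56.0% had a difference below 0. The median difference on chromosome 8 was -0.13 log2 units, or 91.5% of the B18 level, against medians of -0.03 to 0.03 on the others. With median scaling the chromosome 8 counts became 62 lower and 120 higher and the median 0.03, which is -0.12 relative to all genes.

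The shift was present on every array. The chromosome 8 median, taken per array relative to all other autosomal genes and centred within each medium, ran from -0.093 to -0.074 on B20 arrays and from 0.073 to 0.080 on B18 arrays in R2i. In PD it ran from -0.057 to -0.049 in B20 and from 0.052 to 0.070 in B18, and in 2i from -0.058 to -0.038 in B20 and from 0.040 to 0.060 in B18. B20 and B18 arrays did not overlap in any medium, and the third B20 PD array lay among the other B20 arrays. Averaged over the media, the B20 minus B18 difference was -0.12. Over the 18 other autosomes, each set against the rest in the same way, the differences ran from -0.03 to 0.03. Within 1 medium other autosomes could separate too. The centred median of chromosome 14 in PD, not set against the rest, ran from -0.040 to -0.028 in B20 and from 0.034 to 0.046 in B18. That of chromosome 11 in 2i was -0.035 and -0.039 in B20 and 0.044 and 0.026 in B18. The separation was seen before any test of it was chosen, so no p is given.

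**Figure D3:**
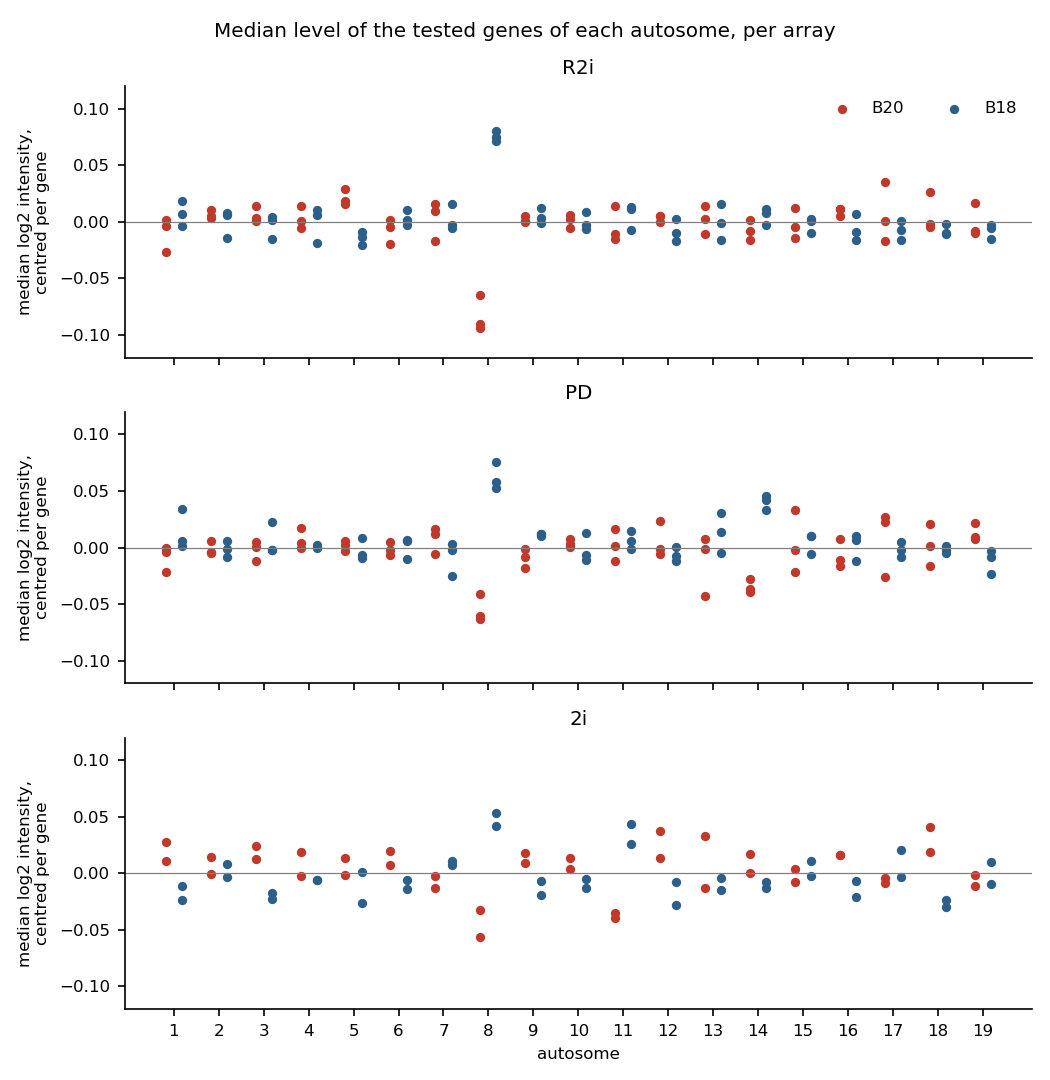
Median centred log2 intensity of the tested genes of each autosome, 1 point per array, B20 left of B18, in 3 panels for R2i, PD and 2i. On chromosome 8 every B20 array lies below 0 and every B18 array above it; with median scaling the B20 minus B18 difference of chromosome 8 relative to the other autosomes is -0.11.

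In 12 runs of 40 or 41 consecutive tested genes, every median was below 0, from -0.05 to -0.23, and the lowest runs spanned Mcph1 to Eif4ebp1 (-0.23) and Upf1 to Ap1m1 (-0.23), with 27 and 24 genes lower and 1 and 2 higher. The share of calls was uneven along the chromosome. The run from Rln3 to Adcy7 had 6 lower and 5 higher of 40 genes, and the run from Insr to Cln8 had 7 lower and 5 higher of 41, where 17.5% of all genes were lower and 15.6% higher. The run from Tk2 to Slc7a6os had the median closest to 0 (-0.05). Among 8501 windows of 8 consecutive tested genes over all autosomes, the 3 with the largest medians lay on chromosome 8. The first ran from Abhd8 to Pgls (-0.42). Pgls, the phosphogluconolactonase gene of the pentose phosphate pathway, read 9.14, 9.30 and 9.22 in B20 and 9.97, 10.07 and 10.00 in B18 in R2i. Its mean difference was -0.68 (SE 0.06), and the lines did not overlap. In the same window Abhd8, Mrpl34, Bst2 and Mvb12a fell by 0.66, 0.52, 0.44 and 0.41, the vascular gene Plvap rose by 0.23, and Gtpbp3 fell by 0.16 with a value of 0.04 under median scaling. In the windows from Jund to Map1s, the AP-1 gene Jund and the vesicle GTPase gene Rab3a fell by 0.35 and 0.44, and Pik3r2, Kcnn1 and Map1s did not pass. The fourth window by size, on chromosome 7, was higher in B20 (0.37) and held Zfp715, Zfp658 and Zfp819 beside the kallikrein genes Klk10 and Klk11, which passed, and Klk13, which did not.

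**Figure D4:**
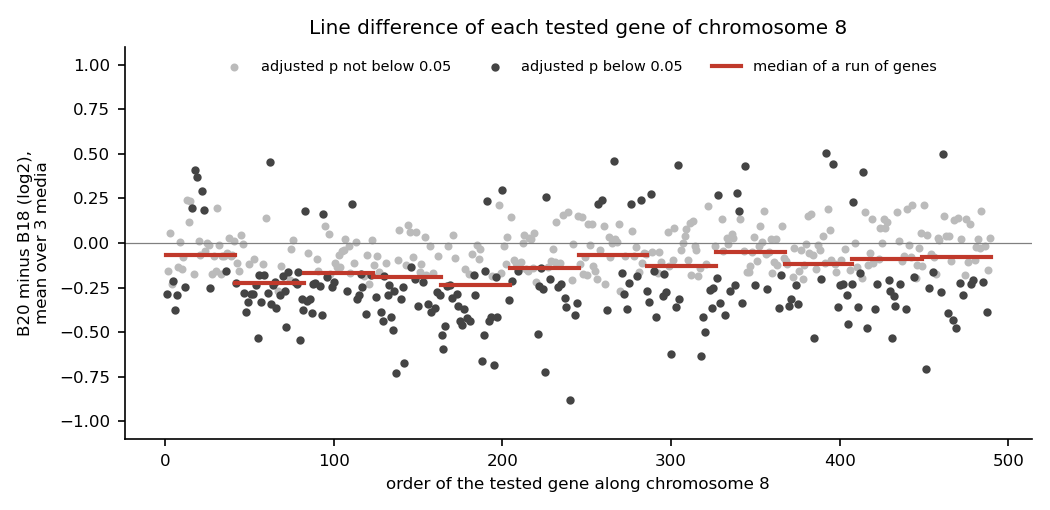
Mean difference B20 minus B18 of the 489 tested genes of chromosome 8 in their order along the chromosome, with the median of each of 12 runs of genes. All 12 medians lie below 0, between -0.05 and -0.23, relative to a median of -0.0031 over all autosomal genes; with median scaling the chromosome's median is 0.03, against 0.155 over all genes.

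Within media, 1753 genes passed in R2i (20.3%), 1333 in PD (15.4%) and 420 in 2i (4.86%), where each line had 2 arrays. Of these, 43 in R2i (0.498%), 28 in PD (0.324%) and 11 in 2i (0.127%) also differed by 1 log2 unit or more. In R2i 16 of them were higher (0.185%) and 27 lower (0.313%), and in PD 11 were higher (0.127%) and 17 lower (0.197%). In 2i 9 were higher (0.104%) and 2 lower (0.0232%). Without the third B20 PD array, 1502 genes passed in PD and 59 differed by 1 log2 unit or more, and without the first B20 PD array 629 passed. Without the third B18 R2i array 1010 genes passed in R2i. Without the second B18 2i array 32 genes passed in 2i, and with each medium fitted alone 0 passed in 2i (1342 at an unadjusted p below 0.05 in limma). The genes named next were chosen after values were seen. In R2i the hormone gene Trh read 8.51, 8.38 and 8.55 in B20 and 6.95, 6.83 and 6.80 in B18, without overlap, while in PD the lines overlapped (10.82, 10.29 and 11.27 in B20, 10.49, 10.88 and 10.85 in B18). The water and glycerol channel gene Aqp3 was lower in B20 in R2i (-1.58), did not pass in PD (0.37) or 2i (-0.27), and differed among the media (limma F test, adjusted p = 0.00075). The immediate early gene Egr1 read 12.68, 12.43 and 12.48 in B20 and 11.11, 10.34 and 10.99 in B18 in R2i, and in PD it spread over 10.70 to 12.79 in B20 and 10.94 to 12.50 in B18. The variation of its difference among the media did not pass (limma F test, adjusted p = 0.18). In 2i the metallothionein gene Mt2 read 6.53 and 7.28 in B20 and 8.40 and 8.37 in B18, and the inhibitor of differentiation gene Id3 read 6.24 and 6.46 in B20 and 5.06 and 5.34 in B18.

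The difference between the lines varied among the media for 431 genes (4.99%, limma F test). Of 147 autosomal genes, predicted genes left out, whose 3 within-medium differences spanned at least 1 log2 unit, 111 passed that test. Leaving out the third B20 PD array raised the count to 801, and leaving out the third B18 PD array lowered it to 224. Grb10 had the lowest p (adjusted p = 1.9e-06), and its difference of 3.09 in PD stood against 1.07 in R2i and 1.20 in 2i. Dppa3, a gene of naive and germ cells also called Stella, turned direction: it read 7.55, 7.50 and 7.60 in B20 and 8.08, 8.25 and 8.16 in B18 in R2i, but 6.40, 6.69 and 6.33 in B20 and 4.91, 5.37 and 4.76 in B18 in PD. In 2i it read 5.27 and 4.70 in B20, where 1 of the 2 arrays was above background, and 5.72 and 6.22 in B18. The lines did not overlap in any medium, with B20 lower in R2i and 2i and higher in PD (F test adjusted p = 0.00016 in limma).

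Gpnmb, a lysosomal glycoprotein gene, was lower in B20 in R2i (-1.41) and PD (-1.14) and higher in 2i (1.05). Samd9l, an interferon-induced gene, read 5.48, 5.37 and 5.91 in B20 and 6.76, 6.94 and 7.0 in B18 in PD. In 2i it read 7.0 and 6.68 in B20 and 6.19 and 6.10 in B18, so that B20 was lower in PD and higher in 2i. Pik3r3, a regulatory subunit gene of phosphoinositide 3-kinase, was lower in PD (-0.82) and higher in 2i (0.55), and in R2i it did not pass (-0.01). Sh3tc2 was lower in R2i (-0.53) and higher in 2i (0.80).

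**Figure D5:**
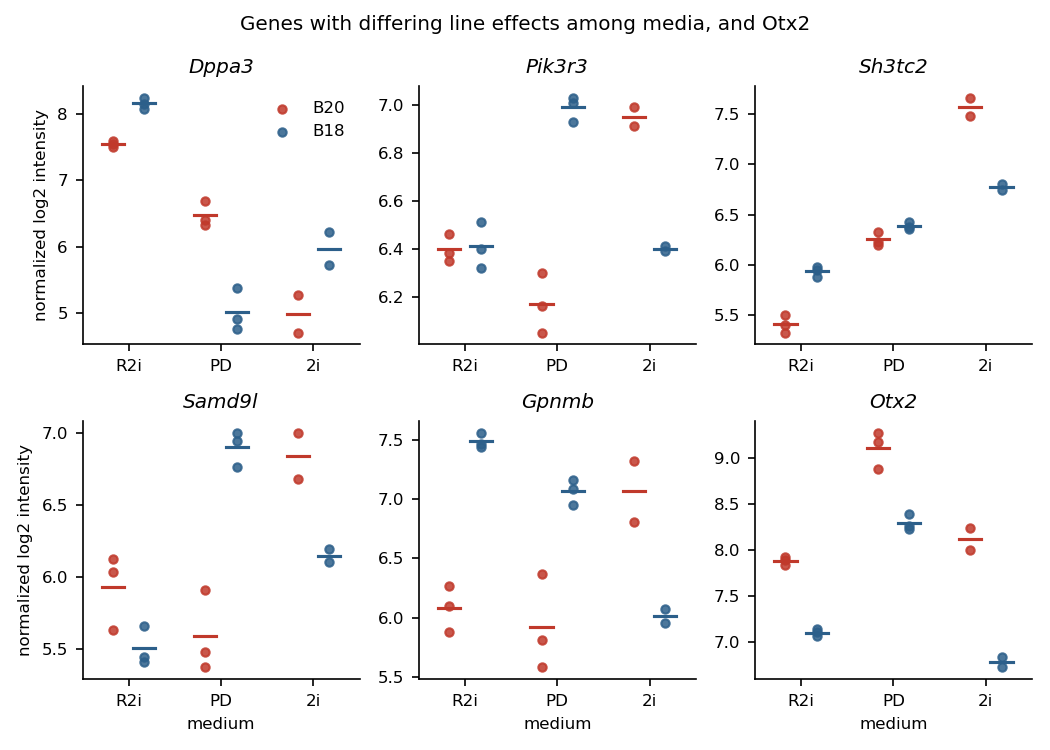
Normalized log2 intensity of Dppa3, Pik3r3, Sh3tc2, Samd9l, Gpnmb and Otx2 in each medium, 1 point per array and a bar at the group mean, B20 left of B18. Dppa3 is lower in B20 in R2i and 2i and higher in PD, while Otx2 is higher in B20 in all 3 media.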

How the data were processed

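Total RNA was labelled as biotin-cRNA and hybridised to Illumina bead arrays, per the labels' protocols. The deposited probe profiles hold raw intensity and a detection p-value per probe and array, per the file headers. A deposited table holds the authors' log2 values. GenomeStudio and limma, with no version, are the tools listed in the submitters' processing notes. Set against the arrays, the log2 table's values equalled those computed here less a constant.

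Intensities were background-corrected with control probes and quantile-normalized with neqc (offset 16) in limma 3.58.1 under R 4.3.3. Probes with a detection p-value below 0.01 on at least 2 of the 16 arrays were kept, with the probe of highest mean per gene. Means of 6 combinations of line and medium were fitted with limma on 10 residual degrees of freedom, and p-values were adjusted by Benjamini-Hochberg over all 9162 genes. Differences are B20 minus B18 within R2i, PD and 2i and averaged over them, and an F test compared the media. The fit was tested on simulated data. A gene not well above background on any array of a group gives only a bound: the brighter group's mean over the higher of the lowest detected signal and the gene's own signal.

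Genes were named by rule: the largest differences seen in every medium, genes detected in 1 line, up to 4 passing members of each list, genes that differed among media, and members of the most shifted windows. Genes outside it are marked as chosen after their values were seen. The members and lists were chosen with earlier results of these data known. Alternatives were median scaling, no background correction, the authors' log2 table, other detection filters, each probe on its own, array weights, a replicate block, each medium alone, and leaving out each array. The values of 2 cholesterol genes are counted with their list and are not reported here.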

Additional observations from a re-analysis of the deposited data

Results flagged for a closer look

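The B20 minus B18 difference varied among R2i, PD and 2i beyond the spread between arrays for 431 autosomal genes (F test in limma, adjusted p below 0.05). Among genes whose differences spanned at least 1 log2 unit, the 6 with the lowest p were as follows. Grb10 had an adjusted p of 1.9e-06 in limma and was higher in B20 in all 3 media, most in PD. Dppa3 had an adjusted p of 0.00016 in limma, with B20 higher in PD and lower in R2i and 2i. Pik3r3 and Sh3tc2 each had an adjusted p of 0.00016 in limma, with B20 higher in 2i, and lower in PD for Pik3r3 and in R2i for Sh3tc2. Samd9l and Gpnmb each had an adjusted p of 0.00017 in limma, with B20 higher in 2i and lower in PD. Without the third B20 PD array the PD differences were 3.05 for Grb10, 1.53 for Dppa3, -0.88 for Pik3r3, -1.47 for Samd9l and -1.37 for Gpnmb.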

How the results depend on the processing

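Of 151 named genes that passed on the mean, 115 lost their call in no setting that still held them. Genes removed by a filter were not counted as lost. With probes detected on all arrays, 138 of the 176 named genes were compared. With median scaling, 4 genes passed at 2-fold on the mean, 2171 passed in 2i and 31 at 2-fold in 2i, and the sign turned for the chromosome 8 median (0.034), Gtpbp3 (0.0429) and Pou5f1 (0.11). Without background correction the 2-fold counts were 1 on the mean, 6 in R2i, 5 in PD and 2 in 2i. With probes detected on all arrays, 7 genes passed at 2-fold in 2i, and with each probe on its own 4 passed at 2-fold on the mean. Array weights gave 2234 genes in PD with 48 at 2-fold, 89 in 2i with 7 at 2-fold, and 789 for the F test. With each medium fitted alone, 0 genes passed in 2i and 0 at 2-fold by limma, with 1342 at an unadjusted p below 0.05, against 1998 in the fit of all media. The replicate block gave 241 genes in 2i, 266 for the F test and 1225 higher and 1423 lower on the mean. The numbers did not pair the arrays: same-numbered arrays correlated in their deviations at -0.09 to 0.07, 0 of 8 pairs exceeded 0.1, and 4 of 8 B20 arrays correlated best with their own number.

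Leaving out 1 array gave 2219 to 2942 genes on the mean (2-fold, 1 to 3), 1010 to 1960 in R2i (2-fold, 35 to 46), 629 to 1502 in PD (2-fold, 19 to 59), 32 to 592 in 2i (2-fold, 7 to 24) and 224 to 801 for the F test. The lowest came without the second B20 2i array on the mean, the third B18 array in R2i and for the F test in PD, the first B20 array in PD and the second B18 array in 2i. The highest in 2i and for the F test came without the third B20 PD array. Apart from the stated construction of each setting, the cause was not tested. Line and chip cannot be told apart, and genes near background have only bounds.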
